A study of Mus musculus with 2 samples.

Results

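Aminoacyl-tRNA synthetases join each amino acid to the tRNA that carries it, the step that sets what a codon means at the ribosome. Mammalian cells hold a cytosolic set and a mitochondrial set, nearly all encoded by separate nuclear genes, and several cytosolic enzymes sit in a multisynthetase complex built around the scaffold proteins AIMP1, AIMP2 and EEF1E1 (also called AIMP3). Many cytosolic synthetase genes are known targets of ATF4, the transcription factor made when amino acids run short or protein folding fails, and myeloid suppressor cells are known for using up arginine and tryptophan around them.

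The members were every gene whose RefSeq symbol is an amino acid letter followed by ars, ars1 or ars2, with Eprs, Farsa, Farsb, Aimp1, Aimp2 and Eef1e1. The rule found 40 of the 20143 genes that the probes name: 20 cytosolic synthetases, 17 mitochondrial synthetases with symbols ending in 2, and 3 scaffold proteins. All 40 had a probe. The array measured 39 of them above background in both cultures. The exception was Nars2, the mitochondrial asparagine enzyme, whose only probe was not well above background in either culture. The family was chosen by measured values in the sense that it was picked out after the log2 ratios of these same arrays had been seen, so its ratios are a description and support nothing by themselves. The rule itself reads only symbols and has no threshold.

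The GM-CSF + IL-6 culture held C57BL/6 mouse bone marrow cells kept for 4 days with GM-CSF at 40 ng/ml and IL-6 at 40 ng/ml. GM-CSF drives the growth of granulocytes and macrophages, and IL-6 is a cytokine of inflammation that activates STAT3. The culture it was set against, GM-CSF ONLY, held cells of the same strain and source kept equally long with 40 ng/ml GM-CSF, and both media held 5% fetal bovine serum. The labels call both products myeloid-derived suppressor cells, which are immature and curb T cell responses, and do not say how many mice gave the marrow. Total RNA of each culture went to 1 Agilent array, so n = 1 per condition. Without replicates no test could be run and no p-value is printed. Because each culture is a mixture, fewer cells of a type and less RNA per cell cannot be told apart in any value below.

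The GM-CSF + IL-6 array read 57.9% of its probes well above background, the GM-CSF ONLY array read 59.1%, with no saturated spot on either, and both lay on 1 slide. Before scaling, the 75th percentile of the signals was 486.2 with GM-CSF + IL-6 and 549.7 with GM-CSF ONLY, a gap of 0.18 on the log2 scale. Each signal below is scaled so that these percentiles meet at 517. The scaling bears on direction, because only Eprs, Cars, Yars and Vars2 of the 39 measured members had a higher unscaled signal with IL-6, and 35 did not. A log2 ratio above 0 therefore means that a probe kept more of its signal with IL-6 than the array's 75th percentile did. The number after ± is a technical error, the spread between spots of probes printed several times at a like signal, and each member's probe was printed once. It covers spot error only, not culture or labelling. Signals depend on the probe, so they are not compared between genes as amounts of RNA. The marker sums below are weighted towards genes with bright probes.

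The label was checked against marker genes. All 14 myeloid markers with a probe were measured, with a summed signal of 1606000 in the GM-CSF + IL-6 culture and 1524000 in the GM-CSF ONLY culture. Of these 9 were higher with IL-6, among them Itgam, Csf3r, S100a8, S100a9 and Mpo, and 5 were lower (Cd33, Csf2ra, Fcgr3, Lyz2 and Ptprc). The sum leans on S100a9 (470300 with GM-CSF + IL-6 and 427000 with GM-CSF ONLY) and S100a8 (378100 with GM-CSF + IL-6 and 355400 with GM-CSF ONLY). Ly6g and Ly6c2 were not analysed here. Markers of other cells differed between the cultures too. Mast cell and basophil markers were higher with IL-6 in 7 of 7 measured genes (summed signal 84190 with GM-CSF + IL-6 and 74960 with GM-CSF ONLY), although Cma1 was not above background. The 7 measured megakaryocyte markers were lower with IL-6 in 6 (summed signal 34360 with GM-CSF + IL-6 and 37590 with GM-CSF ONLY). Of 9 erythroid markers 5 were measured (2470 with GM-CSF + IL-6 and 2108 with GM-CSF ONLY), while Alas2, Hbb-bs and Klf1 were among those that were not; 4 were higher and 1 lower. Stromal markers were measured in 5 of 7 genes (5181 with GM-CSF + IL-6 and 4355 with GM-CSF ONLY), without Col3a1 and Cxcl12. Lepr held most of that sum (4894 with GM-CSF + IL-6 and 4148 with GM-CSF ONLY), and of the 5 genes 3 were higher and 2 lower. The T and NK cell markers were measured in 7 of 9 (16570 with GM-CSF + IL-6 and 15270 with GM-CSF ONLY). Of these 3 were higher, among them Cd4 and Nkg7, which hold most of the sum, and 4 were lower (Cd3d, Cd3e, Cd3g and Lck), with a median of -0.01. The B cell markers were measured in 7 of 8 (24180 with GM-CSF + IL-6 and 24760 with GM-CSF ONLY), 1 higher and 6 lower. What part these cells have in the family's ratios was not tested.

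The family differed little between the cultures. Its 39 measured members had a median log2 ratio of 0.04, with a lowest value of -0.20 (Hars2) and a highest of 0.27 (Vars2), against a median of -0.02 over all 13843 measured genes. Of the 39 members 27 lay above 0, or 69.2%, where 43.8% of all measured genes did. A single member, Vars2, was at least 1.2-fold higher with IL-6, against 6.36% of all genes, and none was at least 1.2-fold lower, against 5.97%. No member differed 2-fold, as 0.383% of all genes did in either direction. The SD of the members' ratios was 0.10, while over all genes it was 0.20 and over the 8049 genes brighter than the 75th percentile 0.13. Since 32 of the 39 members are that bright, the bright genes are the closer background. Of those 40.0% lay above 0. The 1.2-fold size was reached upward by 1.89% of bright genes and downward by 2.42%, lower shares than over all genes.

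Against spot error alone, 9 members were higher with IL-6 by more than 2 technical errors and 2 were lower, leaving 28 inside that range. Among all measured genes 12.5% were higher and 18.9% lower by this measure, and among the bright genes 14.3% were higher and 25.7% lower. The 9 were the cytosolic Eprs, Cars, Iars, Vars, Farsb, Sars, Nars and Aars and the mitochondrial Vars2, and the 2 lower members were the mitochondrial Hars2 and Fars2. With normexp, another background correction, 7 members were higher and 5 lower. Farsb and Vars2 lost the call, and Rars2 and the cytosolic Gars (-0.09) and Qars (-0.12) became lower by more than 2 errors. Here and below, calls under another setting kept the technical errors of the main processing.

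**Figure D1:**
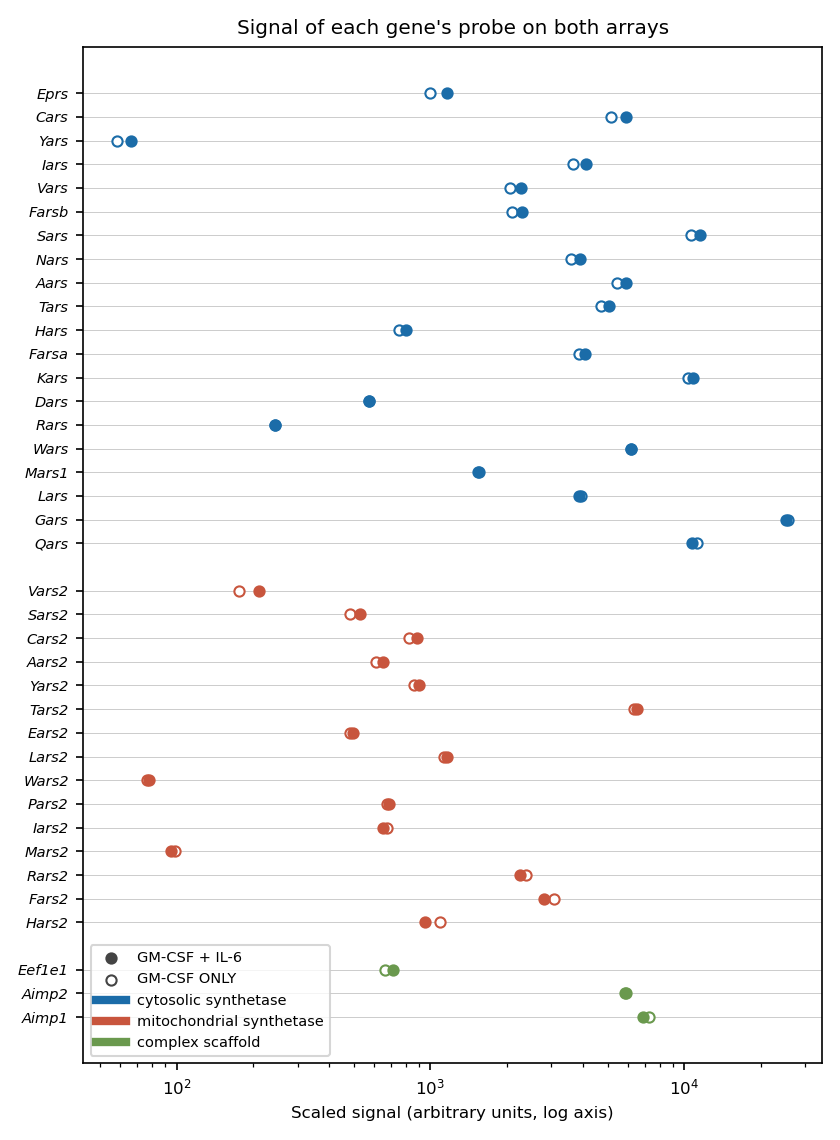
Scaled probe signal of 38 measured members (log axis) in the GM-CSF + IL-6 culture and in the GM-CSF ONLY culture, 1 array each. The pairs of points nearly coincide for most genes: signals ran from 65.83 to 25100 with GM-CSF + IL-6 and from 58.12 to 25740 with GM-CSF ONLY, and no gene differed 2-fold.

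The 20 cytosolic synthetases had a median log2 ratio of 0.10, with 15 above 0 and 5 below, and their values ran from -0.06 to 0.23. The array's edges were set as the first 48 rows, the last 20 columns and the outermost spots, so other spots in the first columns and last rows stayed in. Of the 20, Eprs, Cars, Aars, Dars, Rars and Mars1 were read from these edges, and the other 14 had a median of 0.10 with 10 above 0. Eprs stood highest among the 20. It encodes the fused enzyme that charges both glutamate and proline tRNAs and that, in interferon-γ-treated human myeloid cells, leaves the complex to block translation of certain mRNAs. Its probe read 1165 in the GM-CSF + IL-6 culture and 995.9 in the GM-CSF ONLY culture, a log2 ratio of 0.23 ± 0.07. Cars, the cysteine enzyme, read 5888 with GM-CSF + IL-6 and 5126 with GM-CSF ONLY (0.20 ± 0.05). Before scaling, Eprs read 1095 with GM-CSF + IL-6 and 1059 with GM-CSF ONLY. The unscaled Cars probe read 5537 with GM-CSF + IL-6 and 5450 with GM-CSF ONLY. Both of these unscaled gaps were smaller than 1 technical error.

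Next in order came Iars, which charges isoleucine and read 4117 in the GM-CSF + IL-6 culture and 3655 in the GM-CSF ONLY culture, with a ratio of 0.17 ± 0.05. The valine enzyme Vars followed with 2274 in the GM-CSF + IL-6 culture and 2063 in the GM-CSF ONLY culture, a ratio of 0.14 ± 0.05. These neighbours differ from Eprs and Cars by less than 2 technical errors, so their order is not resolved. Yars, the tyrosine enzyme, had a ratio of 0.18 from a dim probe (65.83 with GM-CSF + IL-6 and 58.12 with GM-CSF ONLY), and its error of 0.25 is larger than the ratio.

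A group of closely spaced values followed, from 0.13 for Farsb to 0.10 for Tars. Farsb encodes the β subunit of the phenylalanine enzyme and read 2293 with GM-CSF + IL-6 and 2100 with GM-CSF ONLY (0.13 ± 0.05). Its partner Farsa, the α subunit, read 4065 with GM-CSF + IL-6 and 3865 with GM-CSF ONLY (0.07 ± 0.05), so both subunits of this tetramer lay on the same side of 0. Sars, for serine, read 11550 in the GM-CSF + IL-6 culture and 10610 in the GM-CSF ONLY culture (0.12 ± 0.04). Nars, for asparagine, had signals of 3871 with GM-CSF + IL-6 and 3570 with GM-CSF ONLY (0.12 ± 0.05). Farsb, Sars and Nars each lay above 0 by more than 2 technical errors. The alanine enzyme Aars measured 5873 in the GM-CSF + IL-6 culture and 5430 in the GM-CSF ONLY culture (0.11 ± 0.05), and its other probe was not above background. Tars, for threonine, gave 5043 with GM-CSF + IL-6 and 4697 with GM-CSF ONLY (0.10 ± 0.05). Histidine is charged by Hars, which stood at 804.8 with GM-CSF + IL-6 and 754.9 with GM-CSF ONLY (0.09 ± 0.07). Kars, the lysine enzyme that serves cytosol and mitochondria from 1 gene, ended this upper group with 10800 in the GM-CSF + IL-6 culture and 10360 in the GM-CSF ONLY culture (0.06 ± 0.04).

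The remaining 7 cytosolic enzymes lay within 0.06 of 0 on the log2 scale. Dars, for aspartate, read 572.6 with GM-CSF + IL-6 and 571.4 with GM-CSF ONLY, and Rars, for arginine, read 244.5 with GM-CSF + IL-6 and 244.1 with GM-CSF ONLY. Neither of these ratios, 0.0031 and 0.0026, can be told from 0. Wars, the tryptophan enzyme and a well-known interferon-γ-induced gene, read 6168 with GM-CSF + IL-6 and 6187 with GM-CSF ONLY (-0.0045 ± 0.05). Mars1, for methionine, read 1539 with GM-CSF + IL-6 and 1561 with GM-CSF ONLY (-0.02 ± 0.05). Lars, the leucine enzyme that also senses leucine for the growth kinase mTORC1, had 3852 with GM-CSF + IL-6 and 3937 with GM-CSF ONLY (-0.03 ± 0.05). Gars charges glycine in both compartments, and its signals were 25100 in the GM-CSF + IL-6 culture and 25740 in the GM-CSF ONLY culture (-0.04 ± 0.04). Qars, for glutamine, was the lowest cytosolic member with 10770 in the GM-CSF + IL-6 culture and 11220 in the GM-CSF ONLY culture (-0.06 ± 0.04).

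**Figure D2:**
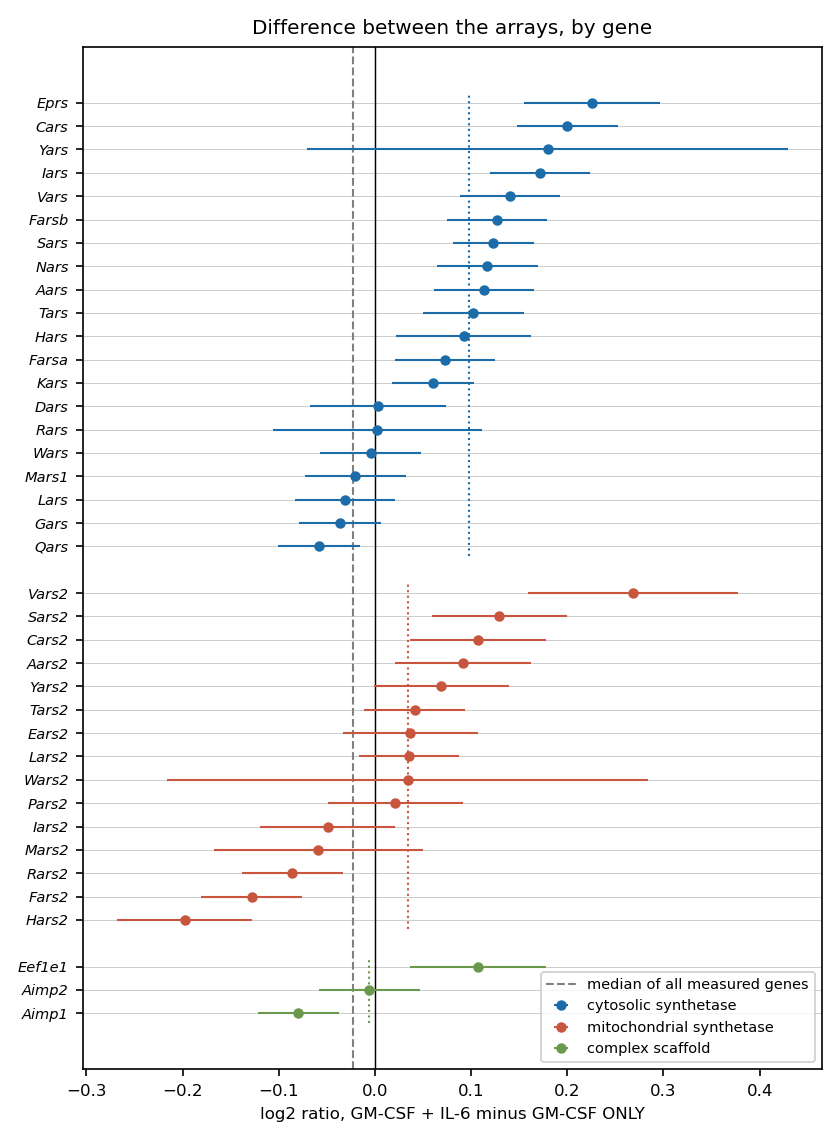
Log2 ratio (GM-CSF + IL-6 minus GM-CSF ONLY) of 38 measured members with 1 technical error on each side, sorted within cytosolic synthetases, mitochondrial synthetases and scaffold proteins. Eprs at 0.23 and Cars at 0.20 lead the cytosolic set, and the mitochondrial set runs from Vars2 at 0.27 to Hars2 at -0.20.

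By catalytic domain, the synthetases divide into class I and class II, which are unrelated in structure. The 10 cytosolic class II enzymes had a median of 0.10 with 9 above 0, Gars being the exception. The 9 of class I had a median of 0.0026 with 5 above 0, and they spread more widely (SD 0.11) than class II (SD 0.05). With normexp the class I median was 0.08 beside 0.09 for class II, and without the array's edges it was 0.07 for 6 class I genes beside 0.10 for 8 of class II, so the gap between the classes rests on the setting. Among mitochondrial enzymes the medians were 0.04 for 9 class I genes and 0.03 for 7 class II genes. Eprs, which joins a class I and a class II enzyme in a single chain, is in neither count.

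In the multisynthetase complex, 8 synthetases and 3 scaffold proteins had a median of 0.0026, with 6 of 11 above 0. Eprs and Iars were the 2 highest, and Lars, Mars1 and Qars lay below 0 beside them. The 12 cytosolic synthetases outside the complex had a median of 0.12, with 10 of 12 above 0; Gars and Wars were the others. Of the scaffolds, Eef1e1 read 714.3 with GM-CSF + IL-6 and 663.2 with GM-CSF ONLY (0.11 ± 0.07). Aimp2, the central scaffold, read 5855 with GM-CSF + IL-6 and 5879 with GM-CSF ONLY (-0.0058 ± 0.05). Aimp1 read 6851 in the GM-CSF + IL-6 culture and 7240 in the GM-CSF ONLY culture (-0.08 ± 0.04), from a spot in the outermost part of the array. The median of the 3 scaffolds was -0.0058, with 1 above 0 and 2 below.

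The 16 measured mitochondrial synthetases had a median of 0.03, with 11 above 0 and 5 below. They spread more (SD 0.11) than the cytosolic set (SD 0.09), and their median was 0.06 lower. Of the 16, 11 were brighter than the 75th percentile, against 18 of the 20 cytosolic members, and dimmer probes have larger technical errors. What part spot error has in the wider spread was not tested. Vars2, which charges valine, had the largest ratio of the family, 0.27 ± 0.11, from signals of 211.5 with GM-CSF + IL-6 and 175.6 with GM-CSF ONLY. A dimmer Vars2 probe pointed the other way, at 47.72 with GM-CSF + IL-6 and 54.40 with GM-CSF ONLY (-0.19 ± 0.25). The median of both probes was 0.04, so the value of Vars2 rests on which probe is read.

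Sars2, for serine, read 526.7 with GM-CSF + IL-6 and 481.5 with GM-CSF ONLY (0.13 ± 0.07). Cars2, for cysteine, read 883.3 with GM-CSF + IL-6 and 820.1 with GM-CSF ONLY (0.11 ± 0.07), and its other probe gave 0.10. Aars2 for alanine, at 652.0 with GM-CSF + IL-6 and 612.0 with GM-CSF ONLY, had a ratio of 0.09 ± 0.07. These 3 lay above 0 by less than 2 errors. Yars2 for tyrosine, at 902.6 with GM-CSF + IL-6 and 860.3 with GM-CSF ONLY, had 0.07 ± 0.07, no more than its error. Tars2 (threonine), Ears2 (glutamate), Lars2 (leucine), Wars2 (tryptophan) and Pars2 (proline) lay between 0.02 and 0.04. Wars2 was dim, with 77.96 in the GM-CSF + IL-6 culture and 76.14 in the GM-CSF ONLY culture, and its second dim probe gave 0.38 ± 0.25.

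At the lower end, Hars2, the mitochondrial histidine enzyme, read 952.7 with GM-CSF + IL-6 and 1093 with GM-CSF ONLY, a log2 ratio of -0.20 ± 0.07. Fars2, a monomer that charges phenylalanine, read 2809 with GM-CSF + IL-6 and 3070 with GM-CSF ONLY (-0.13 ± 0.05). Both were lower with IL-6 by more than 2 technical errors. Rars2, for arginine, measured 2246 in the GM-CSF + IL-6 culture and 2384 in the GM-CSF ONLY culture (-0.09 ± 0.05). Mars2, for methionine, was dim at 94.75 with GM-CSF + IL-6 and 98.68 with GM-CSF ONLY (-0.06 ± 0.11). Neither it nor Iars2, for isoleucine, lay further from 0 than its error. Iars2 stood at 649.5 with GM-CSF + IL-6 and 672.1 with GM-CSF ONLY (-0.05 ± 0.07), with 0.01 from its other probe.

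**Figure D3:**
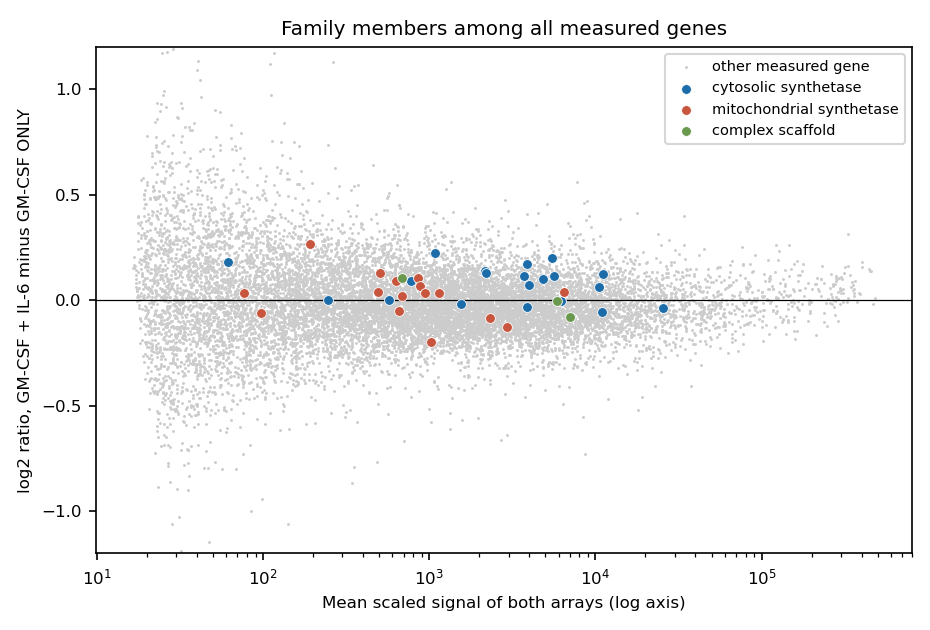
Log2 ratio against mean scaled signal (log axis) for all measured genes (grey) and for family members by compartment; 38 genes beyond 1.2 on the ratio axis are outside the frame. The members lie inside the cloud of like-bright genes, whose bright part has an SD of 0.13.

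Pairing the cytosolic and mitochondrial enzyme of each amino acid gave 17 pairs, in which Eprs and Fars2 each appear in 2. The cytosolic member had the higher ratio in 12 pairs and the mitochondrial member in 5, with a median difference of 0.09. The difference exceeded 2 technical errors in 5 pairs, and in each of these the cytosolic ratio was the higher. Fars2 is in 2 of these 5. How often gaps between other genes pass that limit was not counted. Single genes passed it upward in 12.5% and downward in 18.9% of all measured genes, and in 14.3% and 25.7% of bright genes. With normexp 7 pairs passed, 6 with the cytosolic ratio higher, and Lars minus Lars2 passed the other way at -0.18. Histidine showed the widest gap (Hars minus Hars2, 0.29 ± 0.10), followed by phenylalanine (Farsb minus Fars2, 0.25 ± 0.07) and isoleucine (Iars minus Iars2, 0.22 ± 0.09). The isoleucine gap was 0.08 with normexp and 0.16 without the array's edges, both within 2 errors. Eprs minus Pars2 was 0.20 ± 0.10 and Farsa minus Fars2 was 0.20 ± 0.07. Valine lay at the other end, with Vars minus Vars2 at -0.13 ± 0.12. These 17 differences are not independent replicates, since all come from the same pair of arrays.

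**Figure D4:**
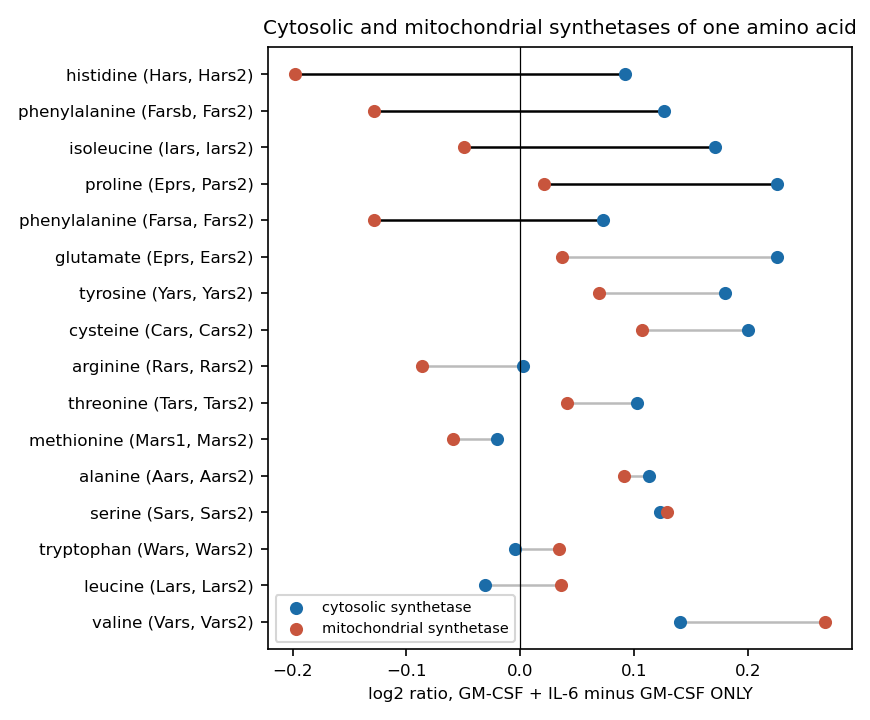
Log2 ratio (GM-CSF + IL-6 minus GM-CSF ONLY) of the cytosolic and the mitochondrial synthetase in 16 pairs, joined by a line that is black where the gap exceeds 2 technical errors. The 5 black lines, from 0.20 to 0.29 long, all have the cytosolic point on the right.

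The C/EBP-ATF response element is the DNA sequence through which ATF4 and its C/EBP partners are known to act, so the members' promoters were searched for its letters. The letters searched were TGATGNAA on either strand, with TGATGCAA as a stricter form that is contained in it, in RefSeq windows of build GRCm38.p6 from 250 bases before to 50 after each start. Windows matched 30 of the 40 members; Cars, Hars, Hars2, Lars, Nars, Pars2, Rars, Vars and Wars were among those with none. The letters stood in 5 of 13 cytosolic genes (38.5%), in 0 of 14 mitochondrial genes and in 0 of 3 scaffold genes. Among all 17492 protein-coding genes with a window 4.13% held them. For the stricter letters the counts were 4 of 13 cytosolic genes (30.8%) and 1.01% of protein-coding genes. The windows of the 5 genes are shown because they carry the motif, in capitals, each read 5′ to 3′ on the gene's own strand: Aars on the plus strand at chr8:111033592-111033891, Gars on the plus strand at chr6:55037751-55038050, Iars on the plus strand at chr13:49681880-49682179, Tars on the minus strand at chr15:11399609-11399908 and Yars on the plus strand at chr4:129189653-129189952.
Aars: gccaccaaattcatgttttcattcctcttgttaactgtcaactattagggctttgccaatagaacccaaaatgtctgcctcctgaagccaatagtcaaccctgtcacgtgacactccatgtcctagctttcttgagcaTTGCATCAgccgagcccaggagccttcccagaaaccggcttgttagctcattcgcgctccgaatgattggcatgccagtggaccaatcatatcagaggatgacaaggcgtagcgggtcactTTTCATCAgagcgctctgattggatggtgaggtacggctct
Gars: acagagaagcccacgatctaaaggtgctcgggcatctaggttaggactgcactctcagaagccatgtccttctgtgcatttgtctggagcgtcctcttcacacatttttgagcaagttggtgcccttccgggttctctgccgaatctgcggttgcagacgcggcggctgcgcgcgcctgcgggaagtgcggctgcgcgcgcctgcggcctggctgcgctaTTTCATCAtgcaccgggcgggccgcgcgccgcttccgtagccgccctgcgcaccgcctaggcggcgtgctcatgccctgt
Iars: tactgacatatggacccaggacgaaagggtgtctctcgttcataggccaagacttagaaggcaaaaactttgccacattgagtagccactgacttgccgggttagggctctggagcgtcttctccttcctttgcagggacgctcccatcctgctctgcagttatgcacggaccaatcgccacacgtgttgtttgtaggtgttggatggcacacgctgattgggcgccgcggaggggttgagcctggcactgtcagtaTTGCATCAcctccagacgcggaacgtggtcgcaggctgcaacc
Tars: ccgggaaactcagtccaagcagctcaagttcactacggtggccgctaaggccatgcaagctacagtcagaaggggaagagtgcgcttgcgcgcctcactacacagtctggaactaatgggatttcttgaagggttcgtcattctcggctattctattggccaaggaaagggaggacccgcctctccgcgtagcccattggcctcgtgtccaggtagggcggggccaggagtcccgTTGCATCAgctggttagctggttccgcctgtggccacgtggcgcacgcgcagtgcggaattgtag
Yars: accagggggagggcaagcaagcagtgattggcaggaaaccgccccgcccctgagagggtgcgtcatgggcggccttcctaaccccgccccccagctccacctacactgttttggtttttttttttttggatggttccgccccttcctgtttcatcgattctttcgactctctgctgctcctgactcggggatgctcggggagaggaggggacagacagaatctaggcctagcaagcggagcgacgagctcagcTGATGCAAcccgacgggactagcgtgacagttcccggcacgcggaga
Counted from the start base as 0, the first base of the match lies at -112 and 9 in Aars, at -30 in Gars, at 7 in Iars, at -15 in Tars and at 3 in Yars. The Yars match reads along the gene's strand and the others on the opposite strand, so the capitals show the reverse complement there. Gars holds only the looser form.

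The cytosolic members with the letters had a median log2 ratio of 0.11, with 4 of 5 above 0. The 8 cytosolic members whose windows lack them had a median of 0.07, with 6 above 0. The range of the 5 was wide, from Yars at 0.18 ± 0.25 and Iars at 0.17 ± 0.05 to Gars at -0.04 ± 0.04. A match of letters is a description of the window and says nothing of whether a factor binds there. Another split used a list, written by hand from textbook knowledge, of cytosolic synthetases often named as ATF4 targets. It gave a median of 0.12 for 12 cytosolic synthetases (8 above 0) and 0.07 for the other 8 (7 above 0). The median of those 8 was 0.03 with normexp.

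Another feature of position was a neighbour that starts head to head with the member. Within 1000 bases upstream on the opposite strand lay the start of another gene for 8 of the 30 members with a window (26.7%), against 13.2% of 17492 protein-coding genes: Aimp1, Aimp2, Ears2, Fars2, Kars, Rars2, Sars2 and Yars. The closest were Terf2ip, which encodes a telomere protein, 5 bases from Kars, and Orc3, a subunit of the origin recognition complex, 15 bases from Rars2. Sars2 faces Mrps12, a protein of the mitochondrial ribosome, across 147 bases, and Mrps12, named for its position, read 8243 with GM-CSF + IL-6 and 7891 with GM-CSF ONLY (0.06 ± 0.04) beside 0.13 ± 0.07 for Sars2.

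Other genes of the amino acid response were read beside the family. Of 36 measured genes 27 lay above 0, with a median log2 ratio of 0.13, and 6 were at least 1.2-fold higher with IL-6. None was that much lower. Over all measured genes 43.8% lay above 0 and 6.36% were at least 1.2-fold higher. Among bright genes these shares were 40.0% and 1.89%. Some of the 6, Cth among them, lay in the dimmest 25% of measured genes. Enzymes that make serine, glycine and proline were among the highest. Aldh18a1, which starts proline synthesis, read 917.4 in the GM-CSF + IL-6 culture and 695.1 in the GM-CSF ONLY culture (0.40 ± 0.07). Shmt2, which turns serine into glycine in mitochondria, read 3489 with GM-CSF + IL-6 and 2839 with GM-CSF ONLY (0.30 ± 0.05). For Phgdh, the entry enzyme of serine synthesis, the 2 probes gave 0.29 and 0.35. Cth, which makes cysteine from cystathionine, was the only gene of the list past 2-fold, and is named here after its value was seen. The brighter of its 2 measured probes was still dim, at 115.2 in the GM-CSF + IL-6 culture and 49.40 in the GM-CSF ONLY culture (1.22 ± 0.25). The value of its other probe is not given here. Of the classical targets, Asns, the asparagine synthetase, had 0.11, Trib3 0.15 and Ddit3 0.02, beside the list median of 0.13. Aldh18a1, Shmt2 and Phgdh were named for their large differences, so these targets are not ranked against them. Atf4 itself read 52190 with GM-CSF + IL-6 and 58350 with GM-CSF ONLY (-0.16), while its dimmer probe gave 0.11, so the direction of its transcript differs by probe. ATF4 is known to be controlled mainly in its translation, which arrays do not measure.

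Phosphorylation of eIF2α is the signal that raises ATF4 synthesis, and the genes around it had a median of -0.02 over 16 genes, with 7 above 0. The list takes in the kinases and their regulators, phosphatase genes, eIF2B subunits and eIF2α itself. The kinases all lay below 0, Eif2ak4 by less than its error, and the 7 above 0 were among the others. Eif2ak4, the sensor of uncharged tRNA known as GCN2, read 1344 with GM-CSF + IL-6 and 1368 with GM-CSF ONLY (-0.03 ± 0.05). Eif2ak3, the kinase of the endoplasmic reticulum, had -0.23 ± 0.05 and Eif2ak2, the kinase activated by double-stranded RNA, -0.19 ± 0.07. The synthetases' other partners in translation gave small medians. Elongation and termination factors had 0.07 over 13 genes with 11 above 0, where Eefsec, the selenocysteine elongation factor, was highest at 0.22. Initiation factors had 0.0057 over 29 genes with 16 above 0, and the extremes Eif3l at -0.21 and Eif4g1 at 0.21 had opposite signs.

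Genes that make and mature tRNA lay near 0 as well. RNA polymerase III and its factors had a median of -0.02 over 22 genes, with 7 above 0 and Gtf3c1, of the factor that binds tRNA genes, at -0.23. The tRNA maturation and export genes had 0.0092 over 53, with 29 above 0, from Cdk5rap1 at -0.24 to Mettl1, the tRNA methyltransferase, at 0.28 outside the dimmest 25% of genes. Xpot, which exports tRNA from the nucleus, had -0.07 from its bright probe and 0.34 from a dim probe. Synthetase-like, editing and selenocysteine genes had -0.0022 over 11, with 4 above 0 and Sephs1 at -0.23.

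The mitochondrial partners lay near 0 too. Mitochondrial ribosomal proteins had a median of 0.0037 over 77 genes, with 39 above 0 and 38 below, and Mrpl35 at 0.42 was the highest. Mitochondrial translation factors had 0.0025 over 15 genes, with 8 above 0. Mtif3, an initiation factor, had -0.22, and Mtif2, the other initiation factor, had 0.20.

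Because Wars and Eprs are tied to interferon-γ in the background above, that response was read too. Of its 20 measured genes 17 lay below 0, with a median of -0.14, and 5 were at least 1.2-fold lower with IL-6. Over all measured genes 43.8% lay above 0 and 5.97% were at least 1.2-fold lower. Among bright genes these shares were 40.0% and 2.42%. Cxcl10, an interferon-induced chemokine, read 837.5 in the GM-CSF + IL-6 culture and 1197 in the GM-CSF ONLY culture (-0.51 ± 0.07). Irf1, an interferon-induced transcription factor, read 10680 with GM-CSF + IL-6 and 13090 with GM-CSF ONLY (-0.29 ± 0.04). Nos2 had -0.31 and the dim Ido1, which breaks down tryptophan, -0.47 ± 0.25. Wars, with ratios of -0.0045 and 0.04 from its probes, lay nearer 0 than these genes, most of which were named for their large differences. Some genes of the list not named here lay about as near 0 as Wars. Arg1, the arginase of suppressor cells, had 3588 with GM-CSF + IL-6 and 3737 with GM-CSF ONLY (-0.06).

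**Figure D5:**
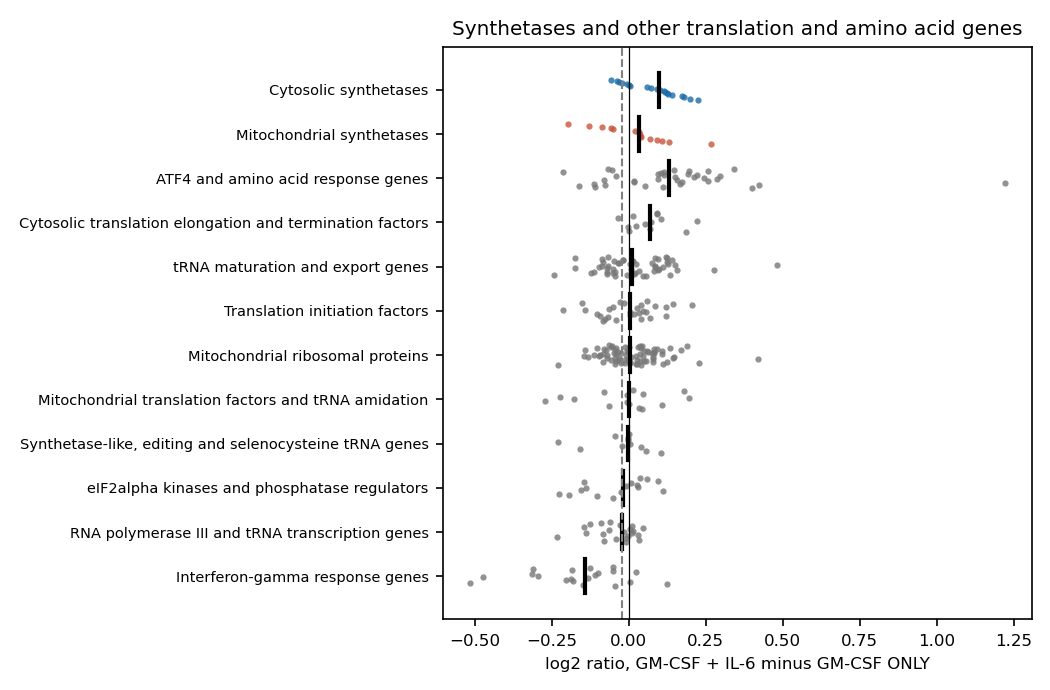
Log2 ratio (GM-CSF + IL-6 minus GM-CSF ONLY) of each measured gene (points) and the median (bar) for the synthetase sets and the pathway lists, with the median of all measured genes, -0.02, as a dashed line. The amino acid response list at 0.13 lies highest and the interferon-γ list at -0.14 lowest, with the cytosolic synthetases at 0.10.

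Where several probes of a gene were measured, the family could be read more than once. In 4 of 7 such members all probes lay on the same side of 0 (57.1%), against 56.4% of 3506 such genes overall. The median gap between probes of a member was 0.05, and over all such genes it was 0.13. The largest gap, 0.46, was that of Vars2. Farsa, Cars2, Tars2 and Wars2 were the members whose probes shared a sign.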

How the data were processed

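The members and gene lists were chosen with earlier results of these data known. Per the file headers, Agilent Feature Extraction 10.7.1.1 gave the deposited spot intensity values, with 62976 spots per array. The authors' series matrix, used as an alternative, holds log2 values that followed each array's log2 intensities (r = 0.99998, both medians 5.10); the normalization behind them is not stated in the labels. The value used was log2 of processed intensity minus the array's 75th percentile over 59305 non-control spots, without outlier spots. A probe was measured when at least 50% of its spots were well above background, and a gene took its brightest probe measured on both arrays. Probes were named through a RefSeq table of GRCm38.p6 by accession, which gave 26577 named probes of 55669. Log2 ratios are GM-CSF + IL-6 minus GM-CSF ONLY, each group being the treatment in the labels. As technical error, log2 ratios of repeated spots gave an SD for each of 6 bins of signal, from 266 probes with at least 5 spots (0.04 for the brightest bin, 0.25 for the dimmest), and this was divided by the square root of the spots used. The number of arrays limits the precision, and no test was possible. Named genes were every member, up to 4 of the largest differences per list outside the lowest 25% by signal, and Atf4, Ddit3, Asns, Trib3, Eif2ak4, Arg1, Ido1 and Xpot; Cth, Mrps12, the markers and the genes of the closing paragraph on amino acid supply fall outside that rule, and a few genes are not reported here by name, though counts and medians include them. The median and fold scripts were tested on simulated data. Alternatives were 5 other scalings or sources (cyclic loess, quantile normalization, centring on the median, normexp at offset 50, the authors' matrix), a stricter filter or none for dim probes, keeping outlier spots, taking the median of a gene's probes, an array without its edges (the first 48 rows, the last 20 columns and the outermost spots) and a stricter motif. The alternative scalings used R 4.3.3 with limma 3.58.1, the rest numpy 2.4.6 and pandas 2.3.3 in Python 3.11.15, and matplotlib 3.10.9 drew the figures.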

Additional observations from a re-analysis of the deposited data

How the results depend on the processing

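Over 10 alternatives the median log2 ratio of the cytosolic synthetases ran from 0.09 to 0.12 and that of the mitochondrial synthetases from 0.03 to 0.06, while the median of all measured genes ran from -0.03 to 0.02. The cytosolic median was higher than the mitochondrial one by 0.05 to 0.07 in each. Of 39 members 32 kept their sign in every alternative that read them (8 to 10 each; 30 members were read without the array's edges and 36 with the stricter filter), 25 above 0 and 7 below. Normexp moved 13 members by more than their technical error, and the median over probes moved 1, Vars2; the cause was not tested. Members at least 1.2-fold higher with IL-6 numbered 1, the mitochondrial Vars2, and 0 with quantile normalization, the authors' matrix or the median over probes. With normexp they were 3, all cytosolic (Cars, Yars and Eprs), and 0 mitochondrial. Vars2 ranged from 0.04 to 0.29. The median of the scaffold proteins moved to 0.0506 without the array's edges, where 2 of 3 remained. Among other genes of the lists, Gspt1 (0.09) turned to -0.0529 with the median over probes and -0.20 without the edges, Xpot (-0.07) to 0.14 with the median over probes, and Dtd2 (-0.16) to 0.25 without the edges, since these settings read another probe of the gene. The stricter motif left 13.3% of family genes with a match. No paired analysis was possible because there was a single array on each side. With 1 spot per member, differences under about 0.10 lie within 2 technical errors for most members, and culture-to-culture spread was not measured.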

Other observations

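Within the amino acid response list, the genes that supply the synthetases with amino acids were set apart after their values were seen. Their counts are therefore descriptions, to be read beside the 43.8% of all measured genes and 40.0% of bright genes that lay above 0. The 8 measured enzymes of serine, glycine, proline, cysteine and one-carbon synthesis all lay above 0, with a median log2 ratio of 0.29. The lowest of them was Mthfd2 at 0.16 ± 0.05. Asns, which makes asparagine and had 0.11, was not put in this set, and Pycr1 of the set was not measured. Cth and Cbs lay in the dimmest 25% of measured genes. Psat1, the second enzyme of serine synthesis, read 6522 in the GM-CSF + IL-6 culture and 5509 in the GM-CSF ONLY culture (0.24 ± 0.05). Psph, which completes the same pathway, had 0.21 ± 0.05. Amino acid transporters lay above 0 in 7 of 9 genes, with a median of 0.11. Slc1a5, which imports glutamine, read 4626 with GM-CSF + IL-6 and 3971 with GM-CSF ONLY (0.22 ± 0.05), and Slc7a5, which carries leucine and other large amino acids, had 0.20 ± 0.05. The exceptions were Slc1a4 at -0.04 ± 0.05 and the cystine importer Slc7a11, at 181.0 with GM-CSF + IL-6 and 209.8 with GM-CSF ONLY (-0.21 ± 0.11). Whether the cell types whose markers differed have a part in these values was not tested.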
